A study of Mus musculus with 16 samples.

Results

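Brd2 was examined together with its paralogs Brd3 and Brdt, which encode proteins of the BET (bromodomain and extra-terminal domain) family. The 3 genes are those among the 53379 genes of the count table whose Ensembl identifiers map by GENCODE to these symbols. Brd2 is a gene the study itself points to from these libraries, so its enrichment here is a description of the same data and not independent evidence, whereas Brd3 and Brdt were added as its relatives. RNA was recovered with an antibody to Sox2, a transcription factor of pluripotent cells, from male mouse embryonic stem cells (mESC) grown on gelatin with LIF and the inhibitors PD0325901 and CHIR99021. In UV-RIP the cells were crosslinked with ultraviolet light, which joins a protein to RNA it touches. In fRIP the crosslinker was formaldehyde, which captures protein partners as well as RNA. Each crosslinker was used on 4 culture plates, numbered 3 to 6 in the labels, and each plate gave an immunoprecipitate (IP) library and an input library from the same lysate. That makes 4 groups of 4 libraries, UV-RIP IP, UV-RIP input, fRIP IP and fRIP input, all from unmodified cells of the same kind, with input as the control for IP.

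BET proteins carry a tandem pair of bromodomains, modules that bind acetylated lysines on histone tails, and an extra-terminal domain that recruits other proteins. They are best known for keeping acetylated chromatin active, in part by bringing the elongation kinase P-TEFb to RNA polymerase II. Brd2 and Brd3 are transcribed in most cell types, while Brdt is known for its role in male germ cells, where it acts in the compaction of sperm chromatin. The measurements below concern the RNAs of these genes, not their proteins.

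The 3 genes differ widely in structure. Brd2 (ENSMUSG00000024335.19) is a minus-strand gene of chromosome 17 (GRCm38, chr17:34112023-34122634), inside the class II region of the major histocompatibility complex. Its body spans 10612 bases, of which 73.7% are exonic in at least 1 of its 19 annotated transcripts, and 7 of these transcripts are annotated as retained introns. Brd3 (ENSMUSG00000026918.16), on the minus strand at chr2:27445579-27507662, spans 62084 bases with 11.8% exonic. Brdt (ENSMUSG00000029279.15), on the plus strand at chr5:107331159-107387058, spans 55900 bases with 9.2% exonic. Coordinates are from GENCODE vM21, which holds another version of the Brd2 entry than the deposited table, with the same body length.

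A read of 34 bases, the length sequenced from each end, can tell these paralogs apart. To show how alike they are, the coding stretch below, in which Brd2 and Brd3 are most similar, is given as DNA from the annotated transcripts, 90 bases long and encoding part of the second bromodomain. Capitals mark bases that differ from Brd2.
Brd2: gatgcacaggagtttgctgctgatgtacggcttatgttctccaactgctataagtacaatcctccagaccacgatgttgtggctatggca
Brd3: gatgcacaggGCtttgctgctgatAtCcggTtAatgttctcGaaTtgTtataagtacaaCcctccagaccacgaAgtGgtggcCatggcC
Brdt: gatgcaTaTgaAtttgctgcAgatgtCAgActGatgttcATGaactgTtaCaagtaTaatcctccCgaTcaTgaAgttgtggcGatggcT
The Brd2 stretch is in exon 8 of transcript Brd2-201 (chr17:34114362-34114451), the Brd3 stretch in exon 7 of Brd3-201 (chr2:27456921-27457010) and the Brdt stretch in exon 8 of Brdt-201 (chr5:107356779-107356868). Brd3 differs from Brd2 at 14 of the 90 positions and Brdt at 20, which leaves 84.4% and 77.8% identical. Even here the longest run shared with Brd2 is 14 bases in Brd3 and 8 in Brdt. Over all annotated transcripts the longest identical run is 20 bases between Brd2 and Brd3, 14 between Brd2 and Brdt and 18 between Brd3 and Brdt, and none of the 34-base words of 1 gene occurs in another of the 3. Reads of spliced or exonic sequence therefore cannot be shared among them without mismatches. Of the 8185 different 34-base words in Brd2 transcripts, 693 (8.47%) also occur in transcripts of other genes, against 0 of 7468 in Brd3 and 3 of 5085 in Brdt. Whether the deposited counting used strand is not given in the sources used here, so reads from Brd2 and from a gene that overlaps it on the other strand cannot be told apart.

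The libraries held between 12456298 and 21211537 unique molecular identifiers (UMIs) on genes, a UMI being a tag that lets copies of 1 RNA fragment be counted once. Replicates of UV-RIP resembled each other more than those of fRIP, the chi-square of a pair divided by its degrees of freedom being 1.52 to 8.33 in UV-RIP and 3.17 to 60.01 in fRIP. Within fRIP, the IP of replicate 5 (38.3 to 60.01 against the other IPs) and the input of replicate 4 (41.0 to 51.9 against the other inputs) stood furthest from the rest, so values without these replicates are given where they matter. Levels are given as CPM (counts per 1000000), the UMIs of a gene in a library whose total is scaled to 1000000. The summed level of 8 mESC markers was between 2075 and 4137 CPM, against 6.82 to 10.4 for 7 genes of differentiated germ layers and 1.56 to 3.30 for 6 fibroblast genes. Sox2 itself, a member of the mESC list, was listed at 0 UMIs in all 16 libraries, and its gene lies wholly within the body of Sox2ot, so the other 7 markers make up that sum.

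Brd2 RNA rose in the Sox2 IP under both crosslinkers, by a little over 2-fold. In UV-RIP its level was 176, 159, 168 and 163 CPM in the input libraries of replicates 3 to 6 and 424, 299, 356 and 386 CPM in the IP libraries. These rest on 1985 to 2257 UMIs per input library and 4408 to 6667 per IP library. Every UV-RIP IP library was above every UV-RIP input library, and the IP of replicate 4 was the lowest of the 4 IPs. The share of all genes whose groups separate in this way was not counted, here or in the comparisons below. The log2 fold change was 1.13 (standard error 0.040, 95% interval 1.05 to 1.21), a fold change of 2.19, with an adjusted p of 1.6e-172 from edgeR's quasi-likelihood test. In comparisons of IP with input and of the inputs, a gene was called at a fold change above 1.5 together with an adjusted p below 0.05, with Benjamini-Hochberg adjustment over all 22936 genes tested, and by this rule 0.68% of the genes tested were called higher and 5.53% lower in the UV-RIP IP. This balance depended on scaling, with 156 genes higher and 1268 lower here, 505 and 425 with TMM scaling in edgeR, and 289 and 233 with DESeq2 on median-of-ratios factors. The standard error pools the spread over genes. Across the 4 plates the log2 ratio of Brd2 itself had a mean of 1.13 with an SD of 0.17, which gives a standard error of 0.083. With all 16 libraries in 1 edgeR fit the adjusted p was 6.79e-12, at a log2 fold change of 1.13. Because Brd2 was named from these same libraries, its p-values against input, here and in fRIP, are not independent evidence of enrichment.

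In fRIP the level of Brd2 was 273, 256, 306 and 284 CPM in the inputs and 541, 651, 595 and 551 CPM in the IPs of replicates 3 to 6. These libraries held 3647 to 4228 Brd2 UMIs in the inputs and 9589 to 13382 in the IPs. Again the groups did not overlap. The log2 fold change was 1.06 (standard error 0.079, 95% interval 0.90 to 1.22), a fold change of 2.09, with an adjusted p of 3.53e-10 from edgeR. In fRIP 8.8% of the genes tested were called higher and 10.7% lower. The input of replicate 4, the library with the lowest Brd2 level of the inputs, belonged to the plate with the highest ratio. Without replicate 4 the log2 fold change was 0.97, and without replicate 5 it was 1.09, both called. Because RNA was taken from whole plates, a larger share of cells carrying a transcript and more RNA per cell cannot be told apart in any of these levels.

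**Figure D1:**
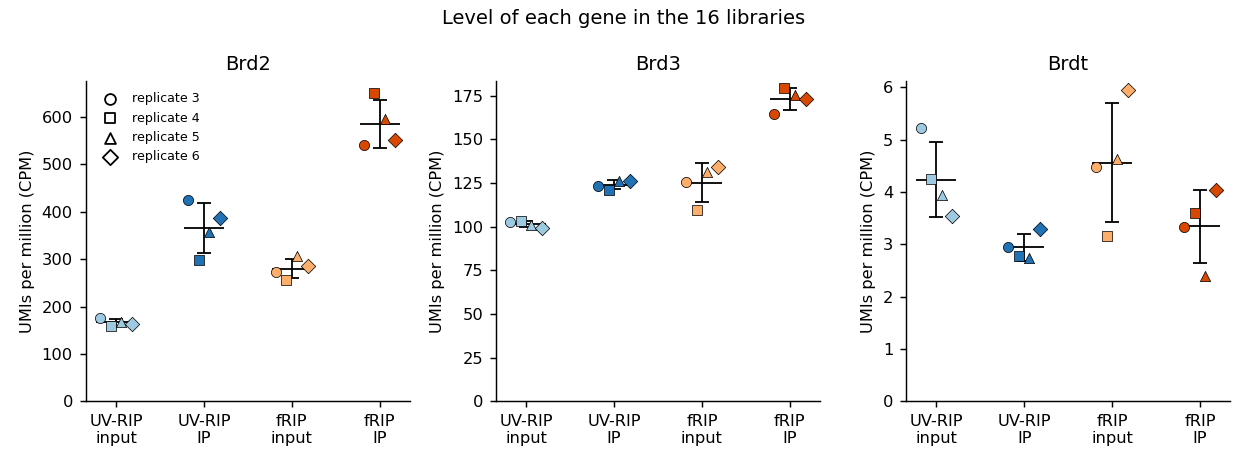
Level of Brd2, Brd3 and Brdt in CPM (y axis, from 0, a scale of its own in each panel) in the 4 groups of libraries (x axis). Each point is 1 library, its shape gives the replicate number, and the bar and whiskers are the mean and SD of 4 libraries. All Brd2 and Brd3 IP points lie above the inputs of the same crosslinker, and Brdt stays below 6 CPM throughout.

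The enrichment of Brd2 did not pass the test for a difference between crosslinkers. In that comparison a gene was called at an adjusted p below 0.05 alone, with no fold threshold. The fRIP log2 fold change minus the UV-RIP one was −0.067 (95% interval −0.26 to 0.13, adjusted p = 0.69, edgeR interaction test over all 16 libraries), while 18.6% of the genes tested were called with a larger and 8.07% with a smaller fold change in fRIP than in UV-RIP. A Brd2 fold change up to 0.26 lower or 0.13 higher in fRIP, on the log2 scale, lay within this interval. The value depended on the replicates. A replicate left out here was removed from both crosslinkers, whose plates are not paired by number. Without replicate 4 the difference was −0.23 (adjusted p = 0.00167, edgeR) and was called, and without replicate 3 it was 0.0059. It also moved with scaling, to −0.19 with TMM (adjusted p = 0.121, edgeR) and −0.21 with DESeq2 on median-of-ratios factors (adjusted p = 0.0628), and was called in neither. The starting level of Brd2 did differ, with 280 ± 20.8 CPM in fRIP input (SD, n = 4) and 166 ± 7.21 CPM in UV-RIP input (SD, n = 4). This was a log2 difference of 0.75 (standard error 0.070, 95% interval 0.60 to 0.90, adjusted p = 6.84e-07, edgeR) and was called, in a comparison in which 10.6% of the genes tested were called higher and 9.44% lower in fRIP input. The summed level of the mESC markers was also higher in fRIP input (3649 to 4137 CPM) than in UV-RIP input (2282 to 2440 CPM), and its part in the Brd2 difference was not tested. The markers differed in size, from Tfcp2l1 with a mean of 1512 against 774 CPM to Tdgf1 with 428 against 398 CPM. Of the markers with UMIs, Zfp42 alone was lower in fRIP input (73.3 against 74.8 CPM). The 2 sets of inputs came from different plates and different crosslinking, and these cannot be told apart. In order of mean level, Brd2 ran from fRIP IP (584 ± 50.1 CPM) through UV-RIP IP (366 ± 52.8 CPM) and fRIP input to UV-RIP input. The lowest UV-RIP IP library (299 CPM) was below the highest fRIP input library (306 CPM), so those neighbours overlapped.

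Brd3 showed the same direction with a smaller size. In UV-RIP it had 103, 103, 101 and 99.3 CPM in the inputs and 123, 121, 126 and 126 CPM in the IPs of replicates 3 to 6, from 1277 to 2177 UMIs per library. The groups did not overlap, and the IP libraries lay close together. The log2 fold change of 0.29 (standard error 0.043, 95% interval 0.21 to 0.38) passed the adjusted p threshold (1.25e-10, edgeR) but was below the fold threshold, so Brd3 was not called. In fRIP its level was 126, 109, 131 and 134 CPM in the inputs and 165, 179, 176 and 173 CPM in the IPs. Here too every IP library exceeded every input library. The log2 fold change was 0.47 (standard error 0.079, 95% interval 0.31 to 0.63, adjusted p = 3.08e-05, edgeR), again under a 1.5-fold change and not called. The difference between crosslinkers was 0.18 (95% interval 0.0017 to 0.36, adjusted p = 0.138, edgeR) and was not called. It was 0.062 with TMM scaling, 0.033 with DESeq2 on median-of-ratios factors and 0.080 without replicate 4. In the inputs Brd3 had 125 ± 11.2 CPM in fRIP and 101 ± 1.73 CPM in UV-RIP (SD, n = 4 each), a log2 difference of 0.30 with an adjusted p of 0.00401 (edgeR) that was below the fold threshold.

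Brdt was barely detected, and its values pointed the other way. It had 65, 53, 52 and 49 UMIs in the UV-RIP inputs and 42, 41, 45 and 57 UMIs in the UV-RIP IPs, or 4.24 ± 0.72 and 2.94 ± 0.25 CPM (SD, n = 4 each). In fRIP it had 69, 45, 64 and 81 UMIs in the inputs and 59, 74, 51 and 73 UMIs in the IPs, or 4.56 ± 1.14 and 3.34 ± 0.69 CPM (SD, n = 4 each). In CPM the UV-RIP groups did not overlap, the fRIP groups did, and the fRIP plate of replicate 4 had more Brdt in its IP than in its input. The log2 fold change was −0.51 in UV-RIP (95% interval −0.79 to −0.23, adjusted p = 0.00153, edgeR) and −0.44 in fRIP (95% interval −0.78 to −0.10, adjusted p = 0.0374, edgeR), and neither was called because both were under the fold threshold. In UV-RIP the median gene was at −0.17, and with TMM scaling, which moved that median to 0.0050, the log2 fold change of Brdt was −0.33 with an adjusted p of 0.0687 (edgeR), that of Brd2 1.31 and that of Brd3 0.47. The Brdt values depended on the replicates and the tool. In fRIP it was called lower without replicate 4 (−0.63, adjusted p = 0.00012, edgeR) but was at −0.28 without replicate 5 (adjusted p = 0.28) and did not pass the p threshold without replicate 3 (adjusted p = 0.077) or without replicate 6 (adjusted p = 0.116). In UV-RIP it was called lower without replicate 6 (−0.65, adjusted p = 0.000493, edgeR) but was at −0.40 without replicate 3 (adjusted p = 0.0542). With DESeq2 on total UMIs the adjusted p was 0.087 in UV-RIP and 0.174 in fRIP. Brdt differed by 0.11 between the inputs (95% interval −0.29 to 0.50) and by 0.068 between the fold changes (95% interval −0.40 to 0.54), and neither was called. The summed level of 6 male germ cell genes was 18.95 to 37.9 CPM, with the sperm protamine gene Prm1 at 0 in every group. These genes, like Brdt, were at lower summed levels in the IPs (18.95 to 25.4 CPM) than in the inputs (30.4 to 37.9 CPM), and their part in the Brdt result was not tested.

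Per kilobase of gene body the genes kept the order Brd2, Brd3, Brdt in each library. In the UV-RIP inputs Brd2 had 15.7 ± 0.68 CPM per kilobase, Brd3 1.63 ± 0.028 and Brdt 0.076 ± 0.013 (SD, n = 4 each). In the fRIP IPs these levels were 55.1 ± 4.72, 2.79 ± 0.10 and 0.060 ± 0.012 (SD, n = 4 each). The counts cover introns as well as exons, and the exonic share of the body is far larger in Brd2 than in the others, so this order is per length of gene and not per transcript.

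Ratios within a plate compare the paralogs without any library scaling, since the library size cancels. The log2 ratio of IP to input in replicates 3 to 6 was 1.27, 0.91, 1.08 and 1.24 for Brd2 in UV-RIP and 0.99, 1.34, 0.96 and 0.95 in fRIP. For Brd3 it was 0.26, 0.23, 0.32 and 0.34 in UV-RIP and 0.39, 0.71, 0.42 and 0.36 in fRIP. For Brdt it was −0.82, −0.61, −0.52 and −0.10 in UV-RIP and −0.43, 0.19, −0.95 and −0.56 in fRIP. Brd2 was above Brd3, and Brd3 above Brdt, on each of the 8 plates. The Brd2 ratio exceeded the Brd3 ratio by 0.71 ± 0.16 on the log2 scale (SD, n = 8 plates, range 0.54 to 1.01). The Brd2 ratio exceeded the Brdt ratio by 1.57 ± 0.30 (SD, n = 8 plates, range 1.16 to 2.09). Because Brd2 was named from these same plates, its lead is a description and no p is given for it.

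**Figure D2:**
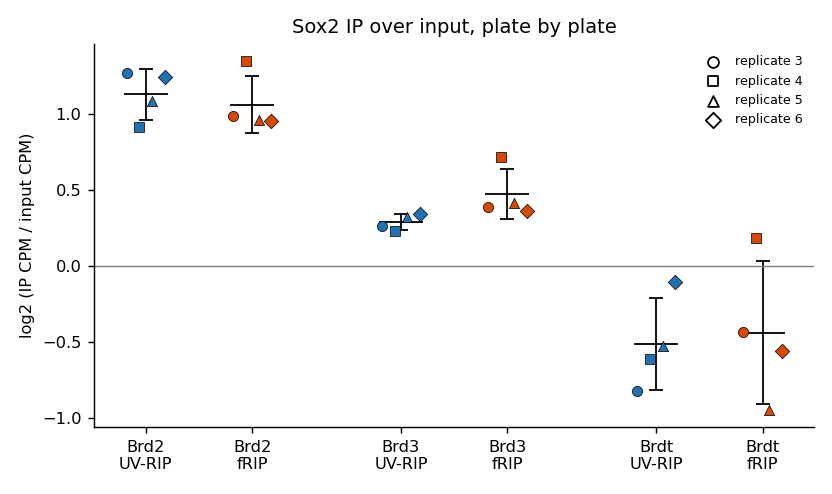
Log2 ratio of IP to input CPM (y axis) on each of the 8 plates for Brd2, Brd3 and Brdt under each crosslinker (x axis). Each point is 1 plate, its shape gives the replicate number, the bar and whiskers are the mean and SD of 4 plates, and the grey line marks no difference. Brd2 lies between 0.91 and 1.34, Brd3 between 0.23 and 0.71, and Brdt below 0 on all plates but fRIP replicate 4.

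The lead of Brd2 over Brd3 had a larger mean in UV-RIP than in fRIP. It was 0.84 ± 0.15 (SD, n = 4 plates, range 0.68 to 1.01) in UV-RIP and 0.59 ± 0.037 (SD, n = 4 plates, range 0.54 to 0.63) in fRIP, so the ranges did not overlap. The means differed by 0.25. For the lead over Brdt they differed by 0.14, a value that was −0.034 without replicate 3 and 0.29 without replicate 5. These 2 comparisons were added after the values were seen, so they are descriptions with no test.

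Within each library the ratio of Brd2 to Brd3 UMIs gives the same picture together with the starting levels. There were 1.71, 1.54, 1.67 and 1.64 Brd2 UMIs per Brd3 UMI in the UV-RIP inputs of replicates 3 to 6, and 3.45, 2.47, 2.83 and 3.06 in the UV-RIP IPs. In fRIP the ratio was 2.17, 2.35, 2.33 and 2.12 in the inputs and 3.29, 3.63, 3.39 and 3.19 in the IPs. The fRIP inputs all exceeded the UV-RIP inputs, by 0.45 on the log2 scale (exact two-sided permutation p = 0.0286, the smallest that 70 splits allow). The IPs of the 2 crosslinkers overlapped, since the UV-RIP IP of replicate 3 was higher than 3 of the fRIP IPs.

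**Figure D3:**
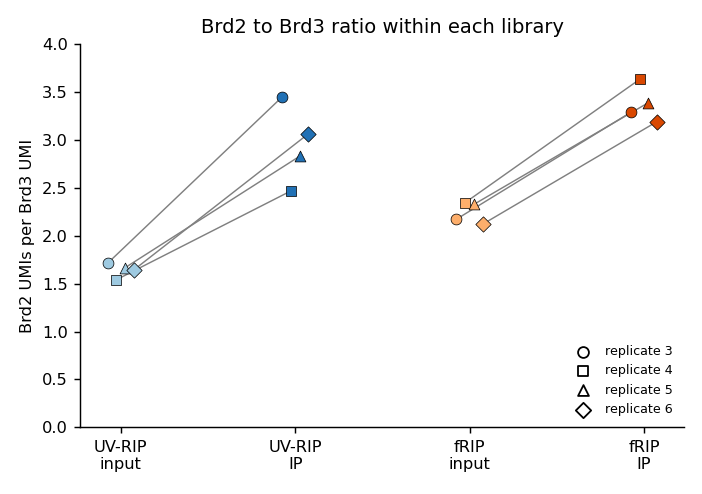
Number of Brd2 UMIs per Brd3 UMI (y axis, from 0) in each of the 16 libraries, by group (x axis). Grey lines join the input and the IP of a plate, and shapes give the replicate number. The inputs lie between 1.54 and 1.71 in UV-RIP and between 2.12 and 2.35 in fRIP, and each of the 8 IPs lies above the input of its plate.

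Of the 10208 genes averaging at least 100 UMIs, Brd2 had the highest log2 fold change in UV-RIP and the 186th highest in fRIP. Brd3 was 516th in UV-RIP and 1607th in fRIP, and Brdt, with a mean of 57.5 UMIs, was not ranked. Among all 22936 genes tested, which include many of low count, Brd2 was 677th in UV-RIP and 1436th in fRIP, and Brd3 3193rd and 5108th. In percentiles of the 10208 genes, Brd2 was at 99.99 in UV-RIP and 98.18 in fRIP, and Brd3 at 94.95 and 84.26. In the inputs Brd2 had the 787th largest log2 difference in favour of fRIP among the 10208 genes, and Brd3 the 3012th. Among all 22936 genes tested these ranks were 3605 and 7734. Brd2 was chosen from these libraries, so its rank describes them and was not tested.

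**Figure D4:**
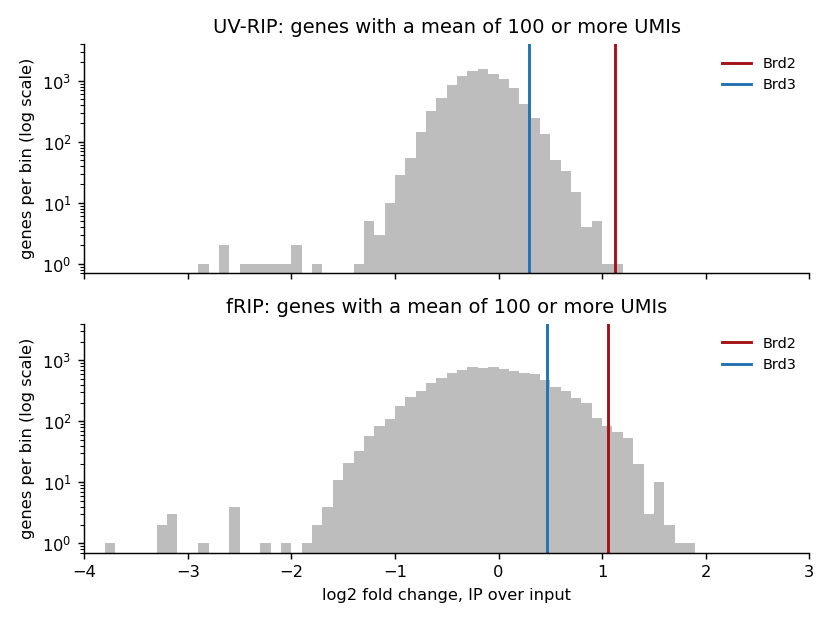
Number of genes (y axis, log scale) in bins 0.1 wide of the log2 fold change of IP over input (x axis) in UV-RIP (upper panel) and fRIP (lower panel), for the 10208 genes averaging at least 100 UMIs. Vertical lines mark Brd2 and Brd3. Brd2 stands at the upper edge of the UV-RIP distribution at 1.13 and inside the broader fRIP distribution at 1.06.

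Of 33 other genes for bromodomain proteins, 0 were called higher and 0 lower in UV-RIP, where 0.68% and 5.53% of all genes tested were. Their log2 fold changes ran from −0.42 to 0.38, and their median was −0.13 against −0.17 for all genes tested. Kmt2a, a histone H3 lysine methyltransferase, was highest at 0.38, and Ash1l, another methyltransferase, was at 0.34. In fRIP 2 of the 33 were called higher and 1 lower (6.06% and 3.03%, both below the shares over all genes), and the median was 0.076 against −0.027 over all genes. Zmynd8, a chromatin reader of DNA damage response, rose by 0.77 on the log2 scale (standard error 0.078, adjusted p = 2.37e-08, edgeR). Brpf3, a scaffold of histone acetyltransferase complexes, rose by 0.67, and Brwd3 fell by 0.63. Brpf3 was no longer called without replicate 4, at 0.52, nor Brwd3 without replicate 5, at −0.58. Kmt2a (0.49), Brd1 (0.46), Ash1l (0.38), Atad2 (−0.54) and Trim28 (−0.46) were the remaining genes at the ends of the fRIP order and were not called.

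The fold change differed between crosslinkers for 15 of the 33 bromodomain genes, with 12 larger in fRIP and 3 smaller (36.4% and 9.09%), called by adjusted p alone. Over all genes 18.6% were larger and 8.07% smaller. The median difference was 0.149 on the list against 0.145 over all genes, so the list as a whole was not shifted. The part of count depth in these shares was not tested. Zmynd8 differed by 0.64 (adjusted p = 2.44e-06, edgeR), Brpf3 by 0.56 and Brd1, a scaffold like Brpf3, by 0.46. Trim28, a corepressor that silences retroelements, differed by −0.55 (adjusted p = 3.2e-06, edgeR). The split depended on scaling, for with TMM, which moved the median of this comparison from 0.15 to 0.030, 6 were larger and 8 smaller, while 3062 of all 22936 genes were larger and 2810 smaller. In the inputs 4 of the 33 (12.1%) were called higher in fRIP and 0 lower, where 10.6% and 9.44% of all genes were. Trim28 was furthest at 1.29, followed by the chromatin remodelling ATPase Smarca2 at 0.85, Baz2a at 0.67 and the acetyltransferase Kat2a at 0.60. The input difference of Brd2 (0.75) lay between those of Smarca2 and Baz2a.

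Of 29 genes whose products work with BET proteins, 0 were called in either direction in UV-RIP, where 0.68% of all genes were called higher and 5.53% lower, and their median was −0.23 against −0.17. In fRIP 1 was called higher and 2 lower (3.45% and 6.9%), both below the shares of 8.8% and 10.7% over all genes, and the median was −0.24 against −0.027. Bicra, a subunit of a SWI/SNF chromatin remodelling complex that BET proteins bind, rose by 0.87 in fRIP (standard error 0.089, adjusted p = 3.27e-08, edgeR) and stood at 0.013 in UV-RIP, a difference of 0.85 (adjusted p = 7.87e-07, edgeR). The 2 genes that fell, Hexim1 by 0.73 and Larp7 by 0.67, encode proteins of the 7SK particle, which holds P-TEFb inactive. Within the 15 genes of P-TEFb and elongation the median in fRIP was −0.26, and Mepce, the enzyme that caps 7SK RNA, was at 0.085 and was not called. Rn7sk, the 7SK RNA itself, was at −0.71 with an adjusted p of 0.09 (edgeR) and at 0.0024 without replicate 4, whose fRIP input held 27880 CPM against 3466 to 6155 CPM in the other fRIP inputs. Aff1, a scaffold of the super elongation complex, was at 0.58 in fRIP, just under the fold threshold, and was called with TMM scaling (0.63) and in other alternatives. Nsd3, a histone methyltransferase bound by the extra-terminal domain, was at 0.26, and E2f1, a cell cycle transcription factor, at 0.15. Between crosslinkers 5 of the 29 had a larger and 2 a smaller fold change in fRIP by adjusted p alone (17.2% and 6.9%), near the 18.6% and 8.07% of all genes. With TMM scaling 4 were larger and 9 smaller, beside the 3062 larger and 2810 smaller of all 22936 genes.

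In the inputs 5 of the 29 partner genes (17.2%) were called higher in fRIP and 0 lower, where 10.6% and 9.44% of all genes were. These 5 are among the 15 genes of P-TEFb and elongation. Nelfb, which encodes a subunit of the negative elongation factor NELF, differed by 0.74, and Hexim1, Larp7 and Mepce by 0.69 each, beside 0.75 for Brd2. Rn7sk was higher by 2.35, and by 1.085 without replicate 4.

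**Figure D5:**
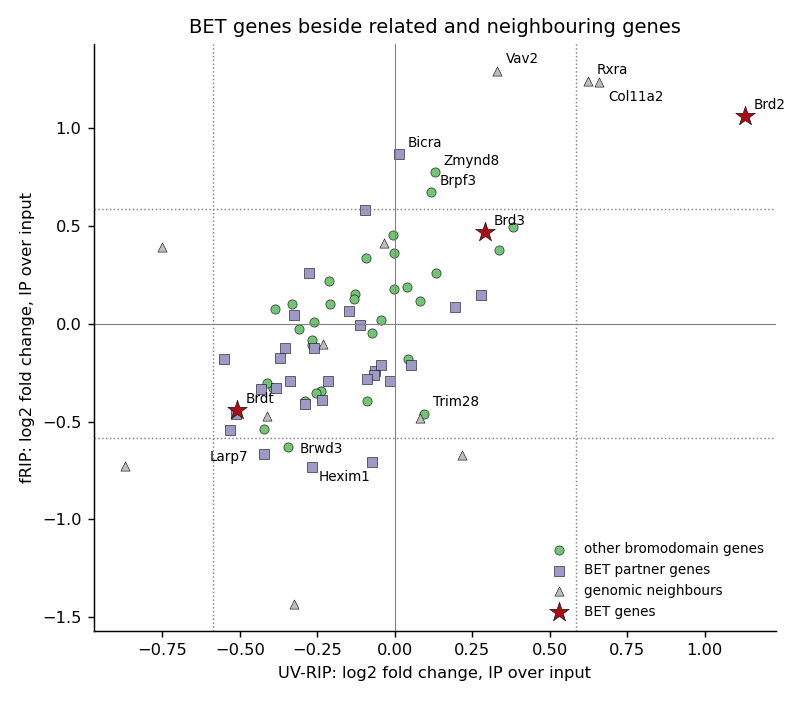
Log2 fold change of IP over input in UV-RIP (x axis) and in fRIP (y axis) for the 3 BET genes (stars) and for other bromodomain genes, BET partner genes and genomic neighbours. Each point is 1 gene, solid lines mark no change and dotted lines mark a fold change of 1.5. Brd2 is the gene furthest to the right, at 1.13, and Brd3 lies inside the dotted lines at 0.29 and 0.47.

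The neighbours of the 3 genes were examined because the counts cover whole gene bodies. The list holds the 2 nearest protein-coding genes on each side of each gene and every gene of the deposited table that overlaps one, 15 in all, of which 11 were tested. In UV-RIP 2 were called higher and 0 lower (18.2% and 0%), against 0.68% and 5.53% of all genes. The median of the 11 was −0.035 in UV-RIP (−0.169 over all genes) and −0.102 in fRIP (−0.027 over all genes). In each of these comparisons 5 of the 11 were positive. Rxra, a nuclear receptor gene 168778 bases from Brd3, rose by 0.62 in UV-RIP (adjusted p = 9.44e-22, edgeR) and by 1.24 in fRIP. Col11a2, a collagen gene 45338 bases from Brd2 with a mean of 38 UMIs per library, rose by 0.66 in UV-RIP and by 1.24 in fRIP. The UV-RIP call of Rxra was lost without replicate 5 (0.58), and that of Col11a2 without replicate 3 (0.56) and with DESeq2 on total UMIs (0.66, adjusted p = 0.104). In fRIP 3 of the 11 were called higher (27.3%, against 8.8% of all genes), these and Vav2, a guanine nucleotide exchange factor gene 18546 bases from Brd3, which rose by 1.29 (standard error 0.086, adjusted p = 8.38e-11, edgeR) and was at 0.33 in UV-RIP. The 1 neighbour called lower in fRIP (9.09%, against 10.7% of all genes) was H2-DMb1, with a mean of 9 UMIs per library, and 0 neighbours were called lower without replicate 6 or with DESeq2.

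Wdr5, 7495 bases from Brd3 on the other strand and a core subunit of histone H3 lysine 4 methyltransferases, was at −0.23 in UV-RIP and −0.10 in fRIP and was not called. The genes beside Brdt were not called in either IP, with Cdc7 at −0.41 in UV-RIP and −0.47 in fRIP, and Tgfbr3 at −0.035 and 0.41. In the comparison of fold changes, by adjusted p alone, 3 neighbours had a larger fold change in fRIP (27.3%, against 18.6% of all genes), namely Vav2, Rxra and Tgfbr3, and 0 a smaller one (against 8.07%). In the inputs 2 were called higher in fRIP (18.2%, against 10.6% of all genes), Wdr5 by 0.65 and Brd3os by 1.42, and 0 lower (against 9.44%). Among overlapping genes, Mir7578 inside Brd3 had 0 UMIs in all 16 libraries, and Gm8152 inside Brdt had at most 2 in any library. How the counting treated reads in overlaps of genes is not given in the sources used here, so low counts of genes inside another gene do not show that their RNA was absent. H2-DMa, on the plus strand, overlaps 3094 bases of Brd2 in the annotation used here, where it is 19561 bases long. In the deposited table it is 3920 bases long, so the extent of its overlap in the counting could not be located. It held 4 to 15 UMIs per library and was not called, with log2 fold changes of 0.22 in UV-RIP and −0.67 in fRIP. An antisense gene, CR974462.3, also overlaps Brd2 in the annotation used here and was not analysed here. These counts set no limit on the reads that Brd2 shares with, or lost to, the overlapping genes.

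Over the 16 libraries the log2 CPM of Lrp1 (Pearson r = 0.976), Lama5 (0.975) and Agrn (0.975) was most like that of Brd2 among 10207 genes averaging at least 100 UMIs. Their log2 fold changes were 0.99, 0.67 and 0.57 in UV-RIP and 0.68, 0.72 and 0.58 in fRIP. Lrp1 encodes an endocytic receptor, and Lama5 and Agrn encode proteins of the basement membrane. Brd3 was the 30th most like Brd2, at 0.939, and Brd2 was the 182nd most like Brd3. Closest to Brd3 were Gm44775 (0.989), Nek6 (0.987), a mitotic kinase gene, and Dlg5 (0.984), a cell polarity scaffold gene. These likenesses describe 16 libraries that fall into 4 groups and share the same depth scaling.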

How the data were processed

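The authors deposited UMI counts per gene body, introns included, without normalization, from rRNA-depleted paired-end libraries. Per the labels and the study's methods, reads were mapped with STAR to mm10, reads that did not map uniquely were discarded, and UMIs were counted with featureCounts on GENCODE vM16. Tool versions and the strand setting are not given in the sources used here. From these counts, edgeR 4.0.16 in R 4.3.3 tested every gene that reached 3 UMIs in any library, with total UMIs as library size. The replicate number was a block for IP against input, since IP and input came from the same lysate (correlation of deviations 0.114 to 0.606 in fRIP and 0.03 to 0.447 in UV-RIP). The interaction used the plate as a block, with calls by adjusted p alone, and the inputs used none. DESeq2 1.42.0 was used in alternatives. The lists were other bromodomain genes, BET partners, genomic neighbours and marker genes. From each list the genes called in UV-RIP, the 5 largest and 3 smallest fRIP fold changes at a mean of 100 or more UMIs, and overlapping genes were named, and for Brd2 and Brd3 the 3 genes most like each. Genes outside this rule (H2-DMb1, Brd3os, Nelfb, Smarca2, Baz2a, Kat2a, Sox2, Sox2ot, Prm1) were named after their values were seen. The members and lists were chosen with earlier results of these data known, and the BET family is not covered in full here. Gene identifiers matched GENCODE vM21 with their version for 50604 genes and without it for 2670. No IP without the Sox2 antibody was analysed here. Replicates are separate plates of 1 cell line, and the spread between plates adds to the counting error of the UMIs.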

Additional observations from a re-analysis of the deposited data

Results flagged for a closer look

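Of 30 groups of 4 values examined, 3 had a value far from the other 3 by Dixon's criterion, which chance alone flags in about 1 in 20 groups. The log2 ratio of IP to input of Brd2 in fRIP was 1.34 on the plate of replicate 4, against 0.95 to 0.99 on the other plates. The log2 ratio of Brd3 in fRIP was 0.71 on the same plate, against 0.36 to 0.42 on the others. Rn7sk, the 7SK RNA, was at 27880 CPM in the fRIP input of that same replicate 4, against 3466 to 6155 CPM in the other fRIP inputs. All 3 values came from the plate of replicate 4, and its input library also had the lowest level of Brd2 (256 CPM) and of Brd3 (109 CPM) among the fRIP inputs. The difference between the Brd2 and Brd3 ratios on this plate, 0.63, lay at the upper end of the fRIP range of 0.54 to 0.63. Brd2, Brd3 and Brdt had no called difference of fold change between the crosslinkers with all replicates. With the replicate 4 plates of both crosslinkers left out, Brd2 was called at −0.23 (adjusted p = 0.00167, edgeR). Its log2 fold change was then 1.20 in UV-RIP and 0.97 in fRIP. The fRIP plate was not left out on its own, so this call cannot be assigned to it.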

How the results depend on the processing

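Brd2 kept its call as higher in the IP in both crosslinkers under every alternative with a test, with log2 fold changes of 1.08 to 1.31 in UV-RIP and 0.97 to 1.11 in fRIP, and Brd3 stayed positive and uncalled against input in each of them. Removing a trend on gene length, which gives a value with no test, moved Brd2 to 1.315 in UV-RIP, 1.276 in fRIP and 0.577 between the inputs, and Brd3 to 0.43 in UV-RIP and −0.105 between crosslinkers. Removing a trend on the GC content of transcripts, chosen after seeing the data, moved Brd3 in UV-RIP to 0.404 and Brd2 between the inputs to 0.5435. With that trend removed Brdt in UV-RIP was at −0.244. The difference between crosslinkers was then −0.18 for Brd2 and 0.014 for Brd3. The trend on GC content of gene bodies was not run for want of a genome, and the list counts have no value with a trend removed. The difference of Brdt between crosslinkers changed sign with TMM scaling (−0.049), with library sizes without the rRNA-rich genes Gm26917 and Gm42418 (−0.066) and with DESeq2 on median-of-ratios factors (−0.074). It was also negative with the gene-length trend removed (−0.198) and with the transcript GC trend removed (−0.078).

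With each replicate left out in turn, Brdt ran from −0.65 to −0.40 in UV-RIP, from −0.63 to −0.28 in fRIP, from −0.15 to 0.26 between crosslinkers and from −0.12 to 0.25 between inputs, Brd2 between crosslinkers from −0.23 to 0.0068, and Rn7sk in fRIP from −1.065 to 0.0024. The excess of the Brd2 to Brd3 ratio in fRIP input ran from 0.40 to 0.48, the excess of the Brd2 lead over Brd3 in UV-RIP from 0.19 to 0.31, and the same for Brdt from −0.034 to 0.29. With 3 plates a crosslinker the exact permutation p of the first of these was 0.1, the smallest it can be. Within 1 crosslinker the Brd2 lead over Brd3 was 0.837 in UV-RIP and 0.590 in fRIP, and over Brdt 1.641 and 1.498.

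Without the replicate block, genes with a smaller fold change in fRIP than in UV-RIP numbered 1 on the bromodomain list and 1 on the partner list, and no call of Brd2, Brd3 or Brdt changed. Between crosslinkers, 6 bromodomain genes were larger and 8 smaller with TMM, with the reduced library sizes and with DESeq2 on median-of-ratios factors. Of the partner genes, 9, 10 and 9 were smaller under these scalings, 3 larger under the last pair, and 4 smaller at 10 UMIs in at least 4 libraries. In fRIP 2 partner genes were called higher under these scalings. With the reduced library sizes the inputs held 2 bromodomain genes higher and 1 lower, 1 partner gene lower and 1 neighbour higher. With DESeq2 on total UMIs 1 neighbour was higher in UV-RIP, and with either DESeq2 scaling 0 neighbours were lower in fRIP. With each replicate left out, the bromodomain genes ran from 1 to 3 higher and 0 to 1 lower in fRIP, 1 to 7 smaller between crosslinkers and 0 to 1 lower in the inputs. The partner genes ran from 1 to 2 higher in fRIP, 0 to 1 lower in UV-RIP and 1 to 6 smaller between crosslinkers. The neighbours ran from 1 to 2 higher in UV-RIP and in the inputs, and from 0 to 1 lower in fRIP. The cause of these changes was not tested. Depth limits Brdt, with 41 to 81 UMIs per library.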
